A study of Homo sapiens with 7 samples.

Results

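GATA6 peaks that stood alone in the genome were studied here. GATA6 belongs to the GATA family of zinc-finger transcription factors and acts in tissues that derive from endoderm, such as the intestine, and its binding in LS174T, an established human colorectal carcinoma line, was mapped by chromatin immunoprecipitation followed by sequencing (ChIP-seq). A solitary peak was one on chromosomes 1 to 22 or X with a height of 10 to 39 fragments and no other summit of the deposited list within 300000 bp on the same chromosome. The height is the pileup, the number of sequenced fragments that overlap the summit, and the summit is the base where this number is greatest. Members were thus chosen by their height and by the distance between summits, and neither is a finding here. The rule found 785 solitary peaks among the 7568 peaks of the list. Peaks of the same height range with another summit within 300000 bp, called neighboured here, numbered 5557.

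Per the labels, 3 libraries were made with an anti-GATA6 antibody, 1 was input DNA without an antibody, and 3 were made with antibodies to H3K27ac, H3K4me3 or H3K4me1, histone marks that were not analysed here. The labels name no treatment, and all cells were LS174T grown with 10% serum and cross-linked with 1% formaldehyde for 15 min. Nothing said whether the 3 GATA6 libraries came from separate cultures. Each peak had 1 value and not 1 per library. A spread between replicates can therefore not be given, library depth is unknown, and no test was made. Differences between peaks are descriptions of this list, and positions are those of hg19.

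GATA factors recognise short DNA sequences around the letters GATA, which occur very often in the genome, and only a small share of these sequences is bound in any cell type. Much of the binding lies away from gene starts, at enhancers, and enhancers of genes that define a cell type often gather in groups. A peak far from any other is thus the contrary case, a single bound element with no second one listed in its surroundings. Genes and sequences at the peaks are not given, because neither sequence nor annotation of hg19 was used.

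Solitary peaks were a minority at every height, and isolation was more common among low peaks. Of the 6342 peaks of height 10 to 39, 12.4% were solitary. The share was 15.1% at heights of 10 to 11 (145 peaks), 13.2% at 12 to 14 (205 peaks) and 12.6% at 15 to 19 (211 peaks). It was 9.97% at 20 to 24 (103 peaks), 11.2% at 25 to 29 (61 peaks) and 10.4% at 30 to 39 (60 peaks). Outside the range, 167 of 789 peaks under a height of 10 had no summit within 300000 bp (21.2%), as had 42 of 431 peaks over 39 (9.74%). The rule for height therefore left out 209 of the 994 isolated peaks of the list. At its limits, 73 solitary peaks had a height of 10 and 67 isolated peaks a height of 9, whereas 4 solitary peaks had a height of 39 and 3 isolated peaks a height of 40.

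The median solitary peak had its nearest summit 505 kb away, with an interquartile range of 374 to 709 kb. For neighboured peaks the median was 29.7 kb, a contrast that the rule itself made. The nearest summit was over 1 Mb away for 110 solitary peaks , over 2 Mb for 22 and over 3 Mb for 4. The distances ran up to the limit without a break, since 74 solitary peaks lay within 320 kb of a neighbour and 72 neighboured peaks lay 280 kb or more from theirs.

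The 3 peaks next to the limit on each side show how little separated the sets there. Just inside it were a chromosome 18 peak from 71892522 to 71892701, at 300351 bp from its neighbour, and a pair on chromosome 4 that were 300358 bp apart. That pair comprised a peak of height 11 from 189076122 to 189076450 and one of height 23 from 189376543 to 189376816, each the nearest peak of the other. Just outside were a chromosome 5 peak from 59351136 to 59351334 at 298830 bp, a chromosome 22 peak from 43011246 to 43011432 at 298580 bp and a chromosome 12 peak from 84497897 to 84498145 at 298130 bp. Local background, explained below, was 1.22, 0.489 and 0.998 fragments in the former peaks and 0.768, 0.698 and 0.997 in the latter. These values overlapped.

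The most isolated peak lay near the start of chromosome 8, from 224194 to 224518. It was the first peak of its chromosome and the next summit was 7.90 Mb away. It reached 19 fragments, for which counting error alone gives a 95% Poisson interval of 11.4 to 29.7, at a fold of 9.52 over the local background. A further 2 peaks of the 10 most isolated also stood at the end of the list of their chromosome. These were a chromosome 15 peak from 20177109 to 20177362, of height 15, with the next summit at 2.89 Mb, and a chromosome 18 peak from 77703067 to 77703309, of height 26, with the previous summit at 2.88 Mb. For these 3 peaks the distance was known on 1 side only.

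Among peaks with a summit on both sides, the most isolated lay on chromosome 5 from 27502410 to 27502681. It stood 8.97 Mb after the previous summit and 3.55 Mb before the next, in a stretch of 12.5 Mb in which it was the only GATA6 peak. It was not a weak peak: its height was 22 (13.8 to 33.3), its fold was 42.00 and its −log10 p was 29.09. The chromosome 13 peak from 57102528 to 57103035 was 508 bp wide, which is broad for its height of 16, and had 3.41 Mb and 3.32 Mb of empty sequence on its sides. On chromosome 7, the peak from 66411576 to 66411877 reached 24 fragments (15.4 to 35.7), 22.91 times its background, with 8.97 Mb before it and 2.96 Mb after it. The chromosome 4 peak from 3782164 to 3782339 was at the other extreme, with the lowest height the rule admits, 10 (4.80 to 18.4), at a fold of 19.09.

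Chromosome X held the other 3 of the 10 most isolated peaks. That from 69353693 to 69353887 reached 15 fragments at a fold of 15.04, with a nearest summit 3.21 Mb away. The next peak along the chromosome, from 74493334 to 74493553, was also among the 10, reaching 13 fragments at a fold of 26.57, with a nearest summit 2.98 Mb away. The third, from 28006182 to 28006356, had the smallest width of the list, 175 bp, and a height of 12. Heights of the 10 most isolated peaks ran from 10 to 26 with a median of 15.5, close to the median of 15 over all solitary peaks.

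**Figure D1:**
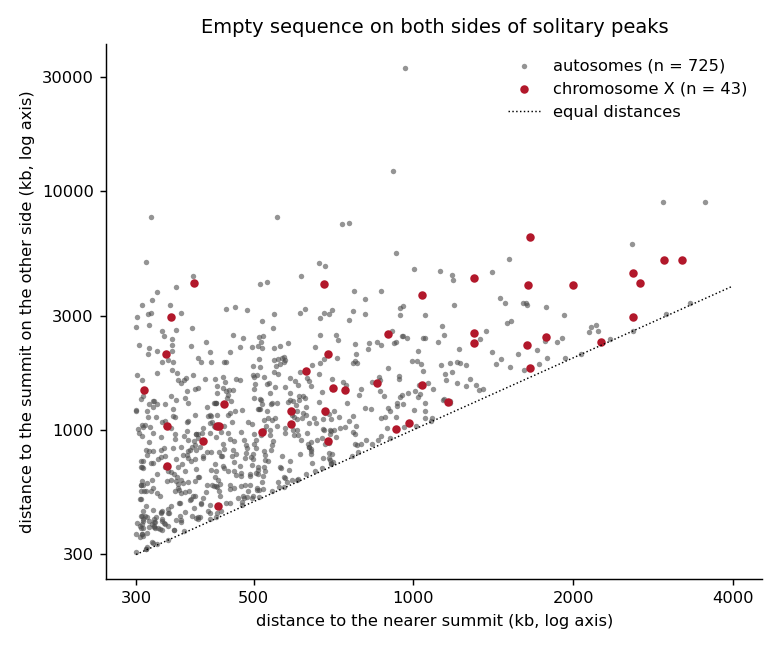
Each point is 1 of the 768 solitary peaks with a summit on both sides, the x axis gives the distance to the nearer summit and the y axis that to the summit on the other side, both in kb on log axes, with autosomes in grey and chromosome X in red. Points cannot lie below the dotted line of equal distances, and the median ratio of the longer to the shorter distance was 1.88. The point highest on the y axis, at 32.7 Mb, is a chromosome 9 peak.

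Solitary peaks bordered much of the length between summits. For the 768 solitary peaks with a summit on both sides, the median distance on the longer side was 1104 kb, and the median stretch between the flanking summits was 1.66 Mb (interquartile range 1.15 to 2.53 Mb). Solitary peaks bordered 1308 of the 7539 intervals between successive summits (17.3%). These intervals held 1413 Mb of 2899 Mb, or 48.8% of the length between first and last summits, and still 45.8% when intervals over 3 Mb were left out. A long interval is what the rule selects, so these shares describe its reach. Of the 25 longest intervals, 15 had a solitary peak at one end or both.

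The longest stretches with a single solitary peak inside were in part set by 1 very long side. The chromosome 9 peak from 38380998 to 38381289, of height 12 and fold 12.03, bordered the longest interval of the list, 32.7 Mb, but had another summit 966 kb away on its other side. The chromosome 16 peak from 47333690 to 47333885, of height 17 and fold 16.23, followed 12.2 Mb of empty sequence and preceded a summit at 916 kb. On chromosome 11, the peak from 50593299 to 50593600, of height 11, had 2.58 Mb before it and 5.99 Mb after it. On chromosome 2, 2 solitary peaks faced each other across 7.76 Mb, one of height 15 from 88998384 to 88998745 and one of height 11 from 96756942 to 96757153. Chromosome 15 had 7.37 Mb of empty sequence after the peak of height 10 from 23821328 to 23821606. Centromeres and other sequence in which short reads cannot be placed were not separated from sequence that could have held a peak, so the length of such a stretch is not a length of GATA6-free chromatin.

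Distance on the shorter side leaves out the longer interval of each peak, but how far the same limit affects it was not examined. Among peaks with a summit on both sides, the most isolated of each chromosome stood 1.93 Mb from its neighbour in the median chromosome. The least was 0.778 Mb, on chromosome 19, and the most was 3.55 Mb, on chromosome 5.

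Solitary peaks also followed one another. Of the 785, 250 (31.8%) had another solitary peak as their nearest, and 245 intervals had a solitary peak at both ends. Solitary peaks were 10.4% of all peaks, but the shares are not alike. The nearest peak of a solitary peak already has a gap beyond the distance limit on the side that faces it. The rule itself thus raises the share of 31.8% and the number of runs. Whether solitary peaks gathered beyond this was not tested. Runs of 3 or more in succession numbered 54 and took in 172 solitary peaks (21.9%). The longest, of 5 peaks, opened chromosome 2: its summits ran from 36021 to 7779818, its heights were 14, 22, 17, 22 and 26, and its mean local background was 0.748 fragments. On chromosome X, 4 solitary peaks of heights 15, 13, 14 and 13 were spread over 10.7 Mb, with summits from 69353813 to 80063661, and included 2 of the 10 most isolated peaks. A further run of 4 lay on chromosome 2, with summits from 15399530 to 19704978 and heights of 13, 16, 22 and 21. The other 6 runs of 4 were on chromosomes 4, 5, 7, 8 and 12, with 2 on chromosome 12.

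Next to solitary peaks, low peaks were more frequent than in the whole list. For tall peaks the order depended on which nearest peaks were counted. Leaving out the 250 nearest peaks that were solitary themselves, whose height the rule had set, 535 were left, and 32 of these (5.98%) were over 39 in height, against 5.70% of all peaks. The latter share counts solitary peaks too, so the sets are not alike. Of all 785 nearest peaks, 4.08% were over 39 in height, and 115 (14.6%) were under 10, against 10.4% of all peaks. The 250 solitary ones can be neither, so all 115 low peaks were among the other 535, where their share is larger.

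Chromosome X had the largest share of solitary peaks. Of its 123 peaks of height 10 to 39, 43 were solitary (35.0%), whereas the autosomes together had 742 (11.9%). Single autosomes ranged from 8.78%, on chromosomes 14 and 17 with 18 solitary peaks each, to 15.8% on chromosome 19 with 21. Chromosome 21 followed with 8 of 51 (15.7%) and chromosome 16 with 20 of 138 (14.5%). Chromosome 2 held the most in number, 73, which was 12.7% of its peaks in the height range, and chromosome 1 held 67, or 9.85%.

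For its length, chromosome X held about as many solitary peaks as the autosomes and fewer neighboured peaks. It had 0.285 solitary peaks per Mb between its first and last summits, against 0.270 on the autosomes together, and 15 of 22 autosomes had fewer per Mb than chromosome X. Its neighboured peaks, in contrast, numbered 0.530 per Mb, against 1.99 per Mb on the autosomes. Among the 22 autosomes, solitary peaks per Mb ran from 0.209 (chromosome 14) to 0.363 (chromosome 19), a 1.74-fold range. All peaks per Mb ran from 1.95 (chromosome 16) to 3.34 (chromosome 17) there, a range of 1.71-fold, against 1.11 on chromosome X. Across the 23 chromosomes, Spearman's rho between the solitary share and all peaks per Mb was −0.73. Both measures come from the same positions, so a relation between them is in part built in. Chromosomes 14 and 19 had similar densities, 2.78 and 2.77 peaks per Mb, but solitary shares of 8.78% and 15.8%. Chromosome X supplied 18 of the 110 peaks with more than 1 Mb to the nearest summit (16.4%), against 5.48% of all solitary peaks.

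**Figure D2:**
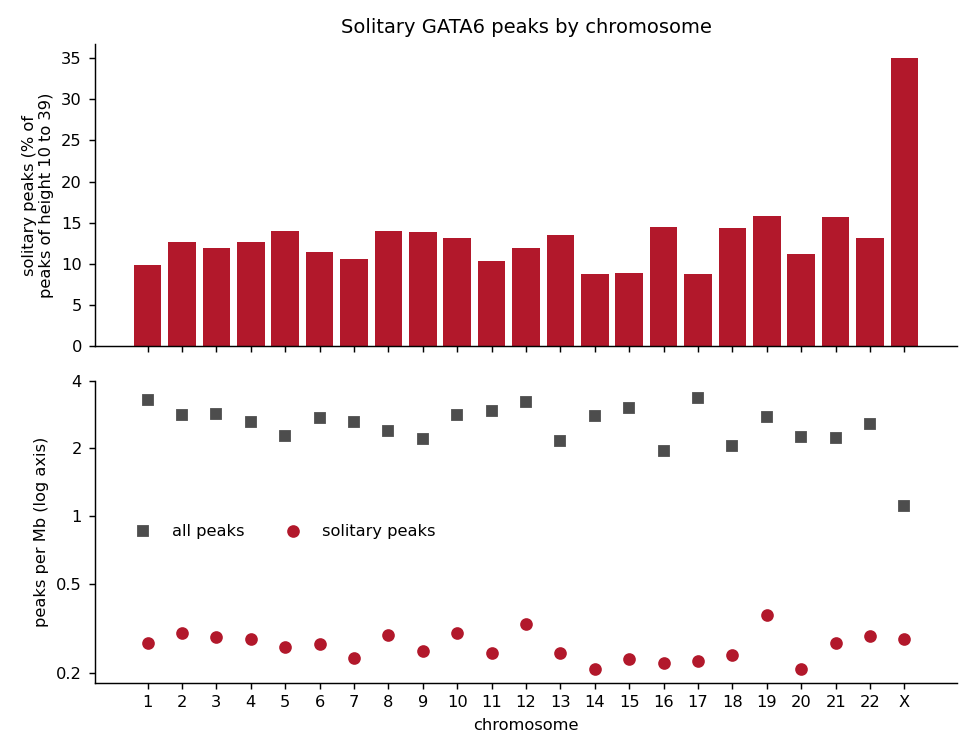
The upper panel gives solitary peaks as a percentage of the peaks of height 10 to 39 on each chromosome, and the lower panel gives all peaks (grey squares) and solitary peaks (red circles) per Mb between first and last summits, on a log axis. Chromosome X stands apart in the upper panel at 35.0%, while in the lower panel its solitary peaks, 0.285 per Mb, lie among those of the autosomes and its peaks as a whole, 1.11 per Mb, lie lowest.

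Solitary peaks scored much like neighboured peaks of the same height range by median, and only their height was slightly lower. Their median height was 15 fragments (interquartile range 12 to 21) against 16 (13 to 22), and 350 of them (44.6%) had a height of at most 14, against 38.9% of neighboured peaks. Counting error alone puts 15 fragments between 8.40 and 24.7 (95% Poisson interval), so single peaks of both medians cannot be told apart. The authors' −log10 p had medians of 13.57 and 13.54, and 780 of 785 solitary peaks (99.4%) had a q-value of at most 0.01, as had 99.4% of neighboured peaks. Solitary peaks had a larger fold, the height over the local background, with medians of 15.04 and 13.41. The fold reached 10 in 633 solitary peaks (80.6%) and in 74.6% of neighboured peaks.

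The best-scoring solitary peaks combined heights near the upper limit with a background near its lowest value. The −log10 p scores the height against the local background, and the rule caps the height at 39. Ranking by this score therefore selects that pairing, which is not a finding. The first by −log10 p lay on chromosome 2 from 145222314 to 145222653, with 39 fragments (27.7 to 53.3), a fold of 77.03 and a −log10 p of 59.95. It was also far from other peaks, with 2.14 Mb to the nearest summit. A second chromosome 2 peak, from 131502123 to 131502459, and a chromosome 7 peak, from 69372701 to 69373067, tied for score, both with 37 fragments (26.1 to 51.0), a fold of 75.61 and a −log10 p of 56.72. The former stood 1.61 Mb from its neighbour, while the latter passed the distance limit narrowly, at 300975 bp. The chromosome 17 peak from 61027539 to 61027888 reached 38 fragments at a fold of 70.21, and the chromosome 10 peak from 135173639 to 135173993, the last of its chromosome, reached 37 fragments at a fold of 70.64. The Poisson intervals of these 5 heights overlapped.

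At the other end, the lowest −log10 p of a solitary peak was 4.80, on chromosome 1 from 216106030 to 216106204. This peak, named after its values were seen, was 175 bp wide with a height of 12, and its fold of 4.01 came from a background of 2.99 fragments. Of the 785 solitary peaks, 11 (1.40%) had a fold under 5, as had 1.71% of neighboured peaks.

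The local background, computed as the height divided by the fold, was lower at solitary peaks. Its mean was 1.23 ± 0.0269 fragments (SE over 785 peaks) against 1.43 ± 0.0110 (SE over 5557 peaks), a difference of −0.200. The medians, 0.998 and 1.05, lay closer. A background of at least 2.5 was found at 46 solitary peaks (5.86%) and at 552 neighboured peaks (9.93%). These standard errors describe the spread over peaks, which share libraries and are not replicates. The highest background at a solitary peak, 6.99 fragments, belonged to a chromosome 15 peak from 81677786 to 81678090 with a height of 35 and a fold of 5.01, named after its values were seen.

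The background is bound up with the height, since a peak over a higher background must be taller to reach the same score. Peaks were therefore also compared at equal height. Against neighboured peaks of exactly the same height, the difference in mean background was −0.156 fragments, and it was negative at 24 of the 30 heights from 10 to 39. At heights of 10 to 11 the means were 0.850 ± 0.0312 and 0.977 ± 0.0141 fragments, and at 12 to 14 they were 1.06 ± 0.0381 and 1.21 ± 0.0158. At 20 to 24 they were 1.45 ± 0.0869 and 1.69 ± 0.0314. At 25 to 29 the means did not differ beyond their standard errors, at 1.72 ± 0.123 and 1.72 ± 0.0450, and there the median was higher at solitary peaks.

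**Figure D3:**
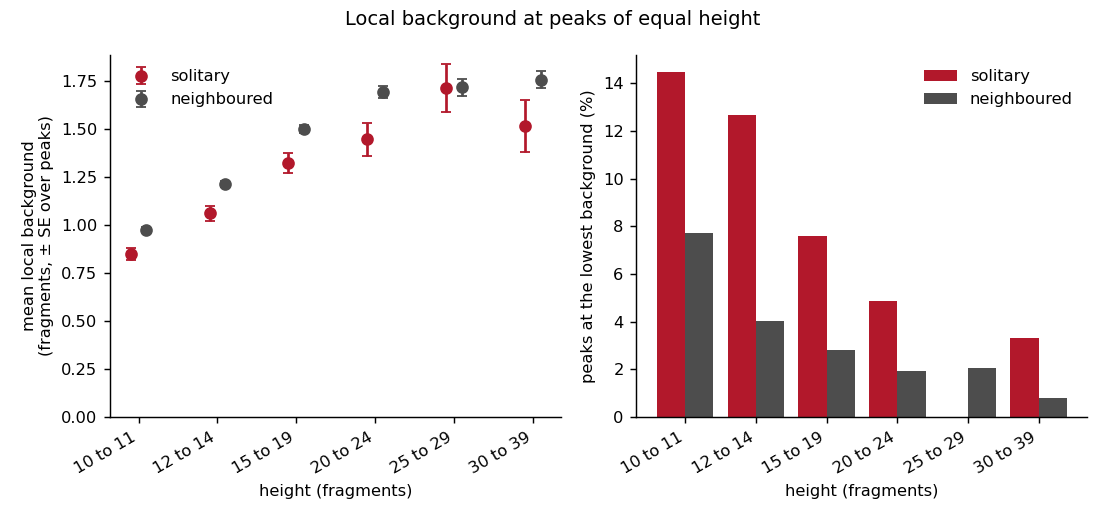
The left panel gives the mean local background in fragments, with bars of 1 SE over peaks, and the right panel the percentage of peaks at the lowest background, for solitary (red) and neighboured (grey) peaks in 6 classes of height. Solitary peaks lie lower on the left in 5 classes, the class of 25 to 29 being level at 1.72, and higher on the right in every class but that same one, where 0 of 61 solitary peaks were at the lowest background.

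The computed backgrounds fell on regular steps above a lowest value, and the steps show what each one rests on. The lowest, called the floor here, was 0.489 fragments. The rest were whole multiples of 0.998 fragments, which is 1 fragment within 175 bp, or of what 1 fragment gives within 1 kb or 10 kb. They were read as fragments of a control, although no source names the control. The floor was the background at 70 solitary peaks (8.92%) and at 190 neighboured peaks (3.42%). At equal height the neighboured share would be 3.78%. Exactly 1 fragment within 175 bp was the background at 169 solitary peaks (21.5%) and 17.3% of neighboured peaks. For 2 or more such fragments the order was the other way, with 158 solitary peaks (20.1%) and 26.3% of neighboured peaks. The 1 kb window gave the background at 300 solitary (38.2%) and 2111 neighboured peaks, and the 10 kb window at 11.2% and 14.9%. A single fragment thus decides many of these values, and the backgrounds of individual peaks carry a large counting error.

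The difference in background was seen on most autosomes and not on chromosome X. Mean background was lower at solitary than at neighboured peaks on 19 of 22 autosomes. The exceptions were chromosome 14, with 1.40 ± 0.179 against 1.35 ± 0.0598 fragments, chromosome 16, with 1.33 ± 0.254 against 1.28 ± 0.0815, and chromosome 18, with 1.61 ± 0.231 against 1.38 ± 0.0837. Each of these 3 had at most 20 solitary peaks, and the differences were within 1 standard error of the difference. Of the 19 autosomes with a lower mean, chromosomes 4, 6, 11, 15 and 19 also differed by less than 1 such standard error. On chromosome 15 the means were 1.77 ± 0.325 and 1.78 ± 0.0756 fragments. Chromosome 8 had the clearest difference among chromosomes with over 40 solitary peaks, at 1.04 ± 0.0766 against 1.43 ± 0.0489. On chromosome 1 the means were 1.48 ± 0.102 and 1.72 ± 0.0385.

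On chromosome X the background was low whether or not a peak stood alone. It was 0.930 ± 0.0861 fragments at 43 solitary peaks and 0.923 ± 0.0598 at 80 neighboured peaks. The floor was found at 10 of the 43 (23.3%) and 20 of the 80. On the autosomes the floor shares were 8.09% and 3.10%. Whether chromosome X differed from the autosomes in this contrast was not tested.

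Background tended to be lower where the nearest summit was farther away, though not from each class of distance to the next. Over peaks of height 10 to 39 its mean was 1.495 ± 0.0342 fragments where the nearest summit was within 1 kb, 1.54 ± 0.0251 at 1 to 10 kb, 1.44 ± 0.0198 at 10 to 50 kb and 1.36 ± 0.0270 at 50 to 100 kb. It was 1.32 ± 0.0257 at 100 to 200 kb and 1.35 ± 0.0404 at 200 to 300 kb. Among solitary peaks it was 1.27 ± 0.0393 at 300 to 500 kb, 1.25 ± 0.0569 at 500 to 750 kb, 1.13 ± 0.0682 at 750 to 1000 kb and 1.12 ± 0.0564 beyond. Against neighboured peaks 100 to 300 kb from the nearest summit, the difference of solitary peaks was −0.0996 fragments in place of −0.200. Part of the difference was thus found between peaks that all had a neighbour. Across 6342 peaks Spearman's rho between distance and background was −0.16, and it was −0.16 on the autosomes. It was −0.086 within the 785 solitary peaks and −0.057 within the 742 of them on autosomes. All of these relations were weak.

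**Figure D4:**
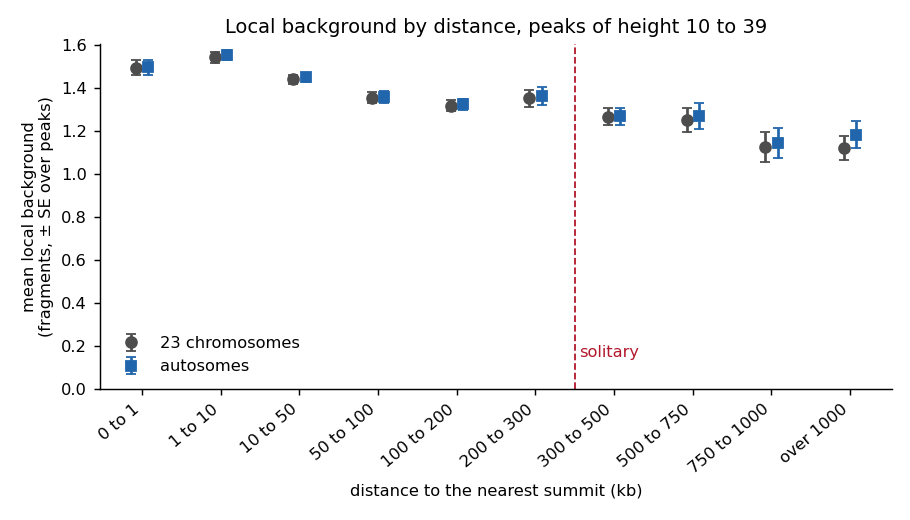
The y axis gives the mean local background in fragments, with bars of 1 SE over peaks, of peaks of height 10 to 39 in classes of distance to the nearest summit in kb (x axis), over 23 chromosomes (grey circles) and over autosomes (blue squares). Over 23 chromosomes the mean is highest at 1 to 10 kb, 1.54 fragments, and lowest beyond 1000 kb, 1.12, but it is higher at 200 to 300 kb than at 100 to 200 kb; on the autosomes it is 1.18 beyond 1000 kb. Solitary peaks lie to the right of the dashed line.

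Solitary peaks were narrower by median, 242 bp (interquartile range 203 to 297) against 256 bp (209 to 318), but little narrower at equal height up to 24. The medians differed by −14 bp. Each solitary width was also compared with the median of neighboured peaks of exactly the same height. The median of these differences was −5 bp, which is another measure than the −14 bp. Up to a height of 24 the medians were within 4 bp of each other: 199 and 203 bp at heights of 10 to 11, 217 and 219 bp at 12 to 14, 247 and 248 bp at 15 to 19, and 288 and 288 bp at 20 to 24. The tallest were further apart, with 291 and 316 bp at 25 to 29 and 328.5 and 347 bp at 30 to 39. Solitary peaks had the smaller median width on 17 of 23 chromosomes, and on chromosome 1 both medians were 248 bp.

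The widest solitary peaks, named after their values were seen, were both on chromosome 1. One spanned 637 bp from 40849801 to 40850437 with a height of 27, and the other 626 bp from 62209529 to 62210154 with a height of 34 and a fold of 45.29. The widest neighboured peak spanned 957 bp. The smallest width of 175 bp was found at 44 solitary peaks (5.61%) and 6.30% of neighboured peaks. The summit lay near the middle of the peak in both sets, at a median of 49.1% and 48.5% of the width.

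Across the solitary peaks, taller ones were wider (Spearman's rho 0.58, n = 785) and had a higher background (rho 0.37). The same relations among neighboured peaks had rho of 0.58 and 0.35. The 17 solitary peaks that were first or last on their chromosome had a median height of 15 and a mean background of 1.32 fragments, and 0 of them were at the floor.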

How the data were processed

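Per the submitters' processing notes, the tools for the GATA6 libraries were CASAVA 1.8 and BWA 0.5.9-r16, with hg19 as the build. Which peak caller and control were used, and whether the 3 libraries were pooled, is not given in the sources used here. The labels' protocols state fragments of 50 to 250 bp and 12 cycles of PCR. Per the file headers, the p-value and q-value were deposited as −log10 values, beside a pileup and a fold enrichment. The pileup was read here as a coverage signal in whole fragments and the fold as a linear ratio, which the headers do not state. Deposited widths equal end minus start plus 1, so positions count from 1. All scores are the authors'.

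Distances between summits, the background (height divided by fold) and its steps (tolerance 0.0005 of the value beside rounding of the fold) were computed with Python 3.11.15, NumPy 2.4.6, pandas 2.3.3 and SciPy 1.17.1. The 6 peaks on other contigs and chromosome Y were left out. The search for solitary peaks was tested on simulated data. The rule for steps was tested likewise for the floor and the 175 bp and 1 kb windows, but not for the 10 kb window. Poisson intervals (95%) cover counting error only: with no molecular identifiers, fragments can be PCR copies. Rank correlations are descriptions.

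Named peaks were the 10 farthest from their nearest summit, the 5 with the largest −log10 p, 3 on each side of the distance limit, the longest stretches and runs of 3 or more. Members and rules were chosen with earlier results of these data known. The planned look at motifs and genes was not made. Alternatives were other distances, heights, chromosomes, thresholds and matchings.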

Additional observations from a re-analysis of the deposited data

How the results depend on the processing

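All differences are solitary minus neighboured peaks; an alternative was taken to have moved one where it shifted by more than an approximate 95% interval over peaks, and a count where it changed over 1.5 times. The difference in background was negative under all 15 alternatives, and 14 stayed within the interval. Among these, measuring distance between peak edges left the same 785 and 5557 peaks and the same differences, so it was no check. Against neighboured peaks at 100 to 300 kb, the difference in background was −0.0996 fragments. The difference in floor share, 8.92% against 3.42%, was positive under all 15, and was 3.30 points in that comparison and 3.14 points at heights of 15 to 39. The difference in width, −14 bp, was −3 bp at heights of 10 to 19 and −5 bp with height matched, and, in alternatives chosen after seeing the data, −4.5 bp with height matched on autosomes and −6 bp with height class and chromosome matched. Matched widths were medians over solitary peaks of the difference from the neighboured median, whereas −14 bp is a difference between medians. The difference in height, −1 fragment, was 0 at heights of 15 to 39. The fold differed by 1.63 and by 1.27 to 2.15 under 10 alternatives. The number of solitary peaks was 1222 beyond 200 kb, 398 beyond 500 kb and 435 at heights of 15 to 39. With only peaks of −log10 q of at least 5 it was 917, since fewer peaks then count as neighbours. No paired analysis was possible because the list holds no value per library. Depth limits single backgrounds, many of which rest on 1 fragment.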
